A study of Mus musculus with 9 samples.

Results

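RNA sequencing was examined for unstimulated bone marrow-derived DCs, the baseline group of a series that also holds DCs activated with LPS or treated with IFN-β. The members are the 3 libraries labelled unstimulated, carrying the letters A, B and C, out of 9 libraries in the series, and no comparison with the stimulated libraries was made. All 3 share the WT genotype, and bone marrow of C57BL/6 mice, described as female and 8 to 20 weeks old, was grown with GM-CSF at 20 ng/mL. Cells were harvested on day 8 or 9, reseeded and left without stimulus for 6 h. A sort is described for transduced DCs and none for these cells, so that the RNA is taken as that of an unsorted GM-CSF culture. Which cells of the culture the harvest took is not stated. Nothing states that A, B and C came from separate mice or cultures, and the spread between them may be technical.

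GM-CSF is a myeloid growth factor that signals through a receptor with an alpha chain and a shared beta chain, which activates JAK2 and STAT5. Bone marrow grown with it is the classical source of cultured DCs. Such cultures are known to hold CD11c+ cells with features of DCs and of macrophages, next to granulocytes and their precursors, in proportions that differ with the protocol. DCs capture antigen, degrade it in the endolysosome and present it on MHC class II. Macrophages share that phagocytic and lysosomal program and depend on the receptor of M-CSF.

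The depth was 33425803 counts in A, 35877346 in B and 35134316 in C. At least 10 counts in every library were present for 14973 of 55471 genes, of which 11872 were protein-coding (54.0% of 21974 protein-coding genes) and 3101 were not (9.26% of 33497). No count in any of the 3 libraries was recorded for 29442 genes. Levels between genes are compared as TPM, counts per base of exon scaled to a sum of 1000000 in each library over nuclear genes with at least 200 bases of exon. The median level of detected protein-coding genes was 19.9 TPM. At least 100 TPM was reached in every library by 1289 protein-coding genes and at least 1000 TPM by 76. A count of 3 in a library is the floor used for absence, and floors cover counting error only because the reads carry no molecular identifiers.

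The label of the culture was first checked against 4 markers. Itgax, the CD11c integrin chain by which DCs are usually recognised, had 1142, 1220.1 and 1274 TPM in A, B and C and ranked 64th of 21884 nuclear protein-coding genes. Cd74, the invariant chain that guides MHC class II, had 6987, 5887 and 6249 TPM and ranked 11th. Both are abundant in every library, but both are also carried by cultured macrophages. Adgre1, which encodes the macrophage marker F4/80, had 263, 186 and 164 TPM and ranked 626th. Flt3, the receptor of conventional DCs and their precursors, had 2.93, 1.69 and 1.59 TPM, from 178, 108 and 99 counts, and ranked 10490th. The level of Adgre1 was 101 ± 10.4 times that of Flt3 (SD, n = 3). The markers of CD11c+ antigen-presenting cells and F4/80 thus lie well above the median of detected protein-coding genes, and the receptor of conventional DCs lies below it. In bulk RNA, fewer cells of a type and less RNA per cell cannot be told apart.

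The mice are described as female, and the transcripts that differ by sex were read as a check of that description. Xist, the RNA that silences one X chromosome in female cells, had 1, 1 and 0 counts. All 4 Y-linked genes examined were detected in every library, with a summed level of 74.5, 96.7 and 90.7 TPM. Ddx3y, a Y-linked RNA helicase, had 38.9, 44.2 and 41 TPM, and Eif2s3y, a Y-linked translation factor subunit, had 18.2, 31.3 and 29.3 TPM. The Y-linked transcripts are thus present and Xist is at or under the floor in each of A, B and C. These values do not match the description of the mice as female.

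The leading protein-coding genes encode lysosomal, cytoskeletal and iron storage proteins. Lyz2, the lysozyme of myeloid cells, led all protein-coding genes with 40026, 33319 and 34233 TPM, a mean of 35859.6 ± 3637 (SD, n = 3). Its paralog Lyz1 had 13.4, 9.34 and 10 TPM, so that Lyz2 was 3319.7 ± 307 times higher per length (near-identical genes, whose reads may be split). Psap, the precursor of the saposins that help degrade sphingolipids, had 19327, 18300.3 and 17000.1 TPM. Actb, cytoplasmic actin, had 16915, 17766 and 18444 TPM, and Ftl1, the ferritin light chain, had 10361, 10644 and 11124 TPM. The ferritin heavy chain gene Fth1 had 6689, 6968 and 7875 TPM. These 3 libraries give the same leading gene, and Lyz2 is higher in A than in B or C.

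**Figure D1:**
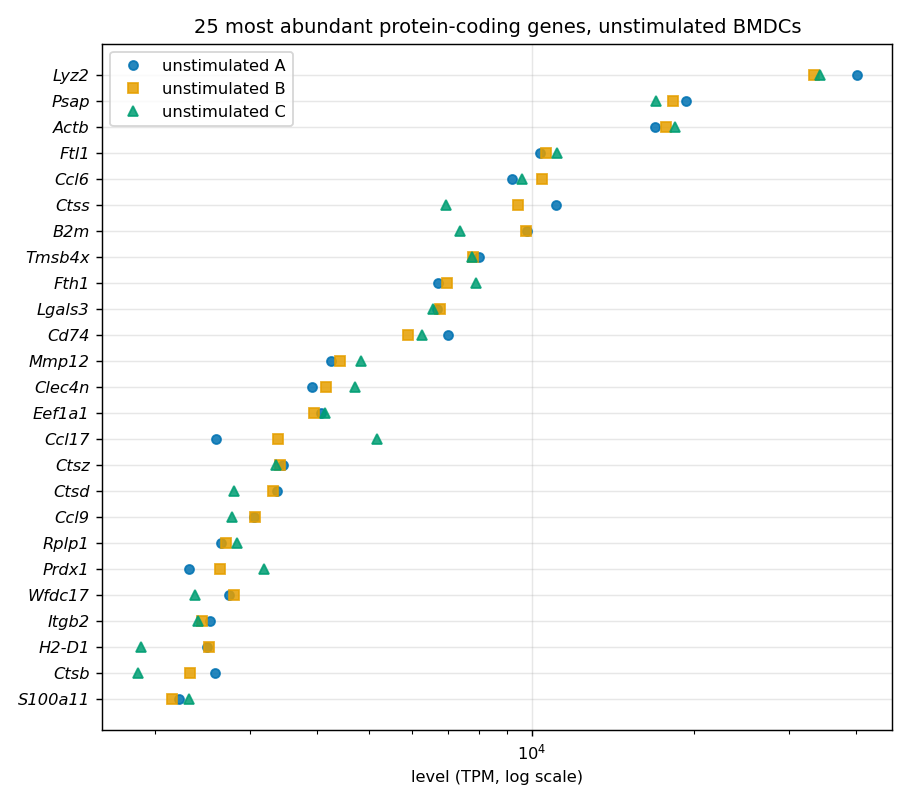
Levels of the 25 protein-coding genes with the highest mean TPM, on a logarithmic axis, with 1 point per unstimulated library. Lyz2 stands first in every library, with 33319 TPM or more, and the points of Ccl17 and Ctss lie farther apart than those of Actb or Lgals3.

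The 25 most abundant protein-coding genes also include secreted and surface proteins of phagocytes. Ccl6, a chemokine of resting mouse myeloid cells, had 9208, 10468 and 9612 TPM, and Ccl9, a related chemokine, had 3057, 3063 and 2785 TPM. Lgals3, the galactoside-binding lectin galectin-3, had 6666, 6766 and 6556 TPM. Mmp12, the macrophage elastase, had 4239, 4409 and 4821 TPM. Clec4n, the fungal receptor dectin-2, had 3912, 4162 and 4704 TPM. Ccl17, a chemokine that draws CCR4+ T cells, had 2599.8, 3387 and 5161 TPM, and was higher in C than in A and B. Itgb2, the beta chain that pairs with CD11c and CD11b, had 2537, 2450.3 and 2405 TPM.

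Further genes among the 25 were B2m (mean 8973 ± 1402 TPM) and H2-D1 (2306 ± 363), which form MHC class I. Tmsb4x, the actin-binding thymosin beta 4, averaged 7847 ± 133 TPM. The translation factor Eef1a1 averaged 4047 ± 96.7 TPM and the ribosomal stalk protein Rplp1 2734 ± 95.1. Prdx1, a peroxiredoxin that removes peroxides, averaged 2715 ± 441 TPM. Wfdc17, a secreted myeloid protein with a whey acidic protein domain, averaged 2644 ± 232 TPM, and S100a11, a calcium-binding protein, 2231 ± 81.4 (SD, n = 3 for each).

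The RNA was concentrated in few genes. The 100 most abundant nuclear genes of any kind held 40.4% ± 0.724 of all TPM (SD, n = 3). They include the non-coding genes Rn7sk and Gm26917, described below, each with a higher mean TPM than Lyz2. With protein-coding genes only, the share was 33.1%, an alternative chosen after seeing the data. Of the 100 most abundant protein-coding genes, 14 encode cytosolic ribosomal proteins, and 82 such genes together took 2.1% ± 0.0739 of the counts. Another 10 belong to the list of 20 lysosomal genes and 8 to the list of 15 cytoskeleton genes. Chemokines contributed 5 of the 100, namely Ccl3, Ccl6, Ccl9, Ccl17 and Ccl22.

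Lysosomal proteases and their partners were high as a list. All 20 genes of the list reached 1 TPM, with a median of 932 TPM. Ctss, the cathepsin that trims the invariant chain, had 11094, 9423 and 6946 TPM. Ctsz averaged 3409 ± 48.7 TPM, Ctsd 3165 ± 315 and Ctsb 2257 ± 364 (SD, n = 3). Lamp1, a major protein of the lysosomal membrane, averaged 1408 ± 3.55 TPM. At the low end of the list, Ctse, a cathepsin outside the lysosome, averaged 2.51 ± 0.662 TPM.

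The genes of MHC class II presentation were all detected. The 13 members summed to 22699, 19112 and 17201 TPM, of which Ctss gave 46.5%. The class II chains H2-Eb1, H2-Ab1 and H2-Aa averaged 1015 ± 144, 969 ± 140.2 and 892 ± 103 TPM. Cd74 exceeded H2-Aa by a factor of 7.16 ± 0.188. The peptide exchange chains H2-DMb1 and H2-DMa averaged 362 ± 11.6 and 232 ± 7.35 TPM. Ciita, the transactivator of class II genes, averaged 37.9 ± 4.37 TPM. The inhibitory chains H2-Oa and H2-Ob, at 11 ± 1.29 and 1.59 ± 0.0736 TPM, were the low members with H2-Eb2 at 1.19 ± 0.44 (SD, n = 3 for each).

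Marker lists of 20 lineages were then read in the same libraries. Of 195 distinct genes on them, 101 reached a mean of 1 TPM, which is close to the 50.9% of all 21884 nuclear protein-coding genes that did so, and the lists are therefore described one by one. The list of genes that DCs and macrophages share was present in full, 13 of 13, with a median of 848 TPM. Tyrobp and Fcer1g, the signalling adaptors of myeloid receptors, averaged 2147 ± 201 and 1223 ± 44.9 TPM. Sirpa, a regulator of phagocytosis on myeloid cells, averaged 848 ± 40.3 TPM, and Spi1, which encodes the myeloid transcription factor PU.1, 392 ± 20.8. Itgam, the CD11b chain, averaged 253 ± 13 TPM, and Itgax was 4.81 ± 0.507 times higher (SD, n = 3).

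**Figure D2:**
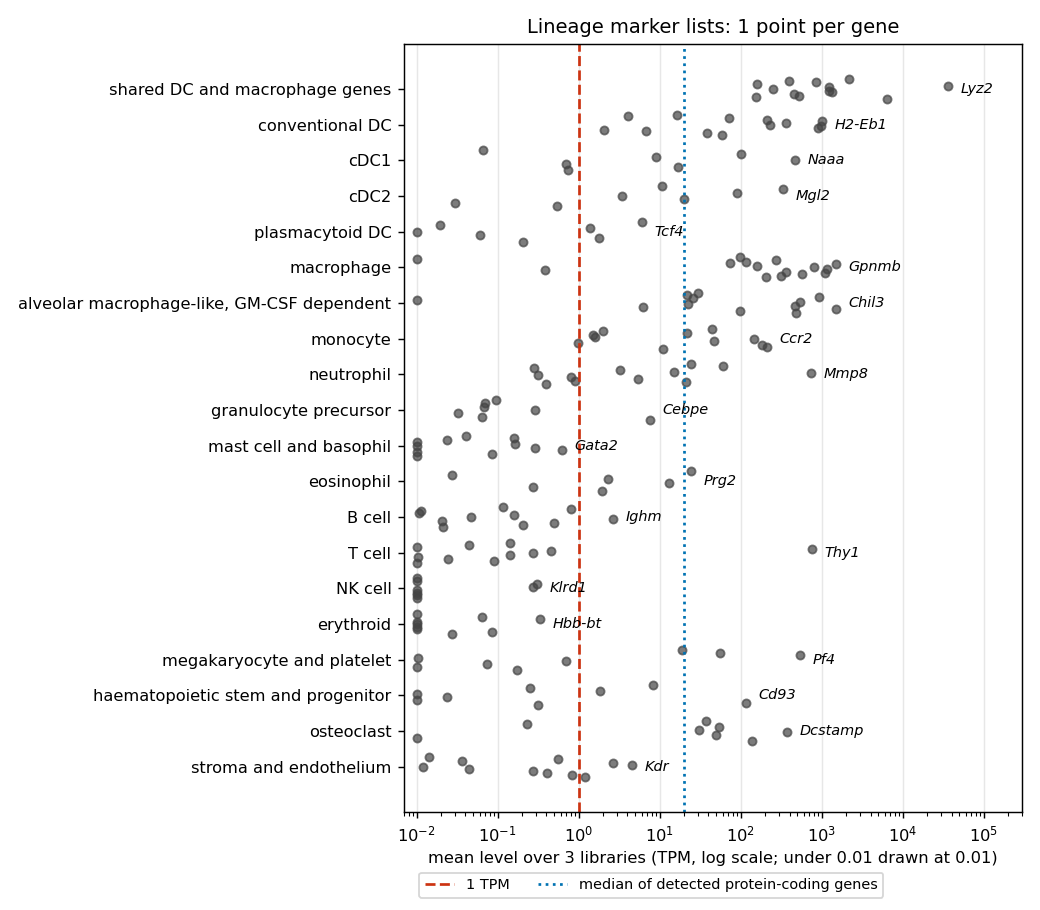
Mean level over the 3 unstimulated libraries of each gene on 20 lineage lists, in TPM on a logarithmic axis, with the highest gene of each list named. The lines mark 1 TPM and the median of detected protein-coding genes at 19.9 TPM, and genes under 0.01 TPM are drawn at 0.01. The NK cell, erythroid and mast cell lists lie below 1 TPM, while the T cell list is led by 1 gene, Thy1.

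The macrophage list was expressed at higher levels than the rest of the lineage lists that name a single cell type, with 13 of 15 genes at 1 TPM or more and a median of 269.6 TPM. Gpnmb, a transmembrane glycoprotein of lysosome-rich macrophages, had 1796, 1638 and 1073 TPM. Cd68, a lysosomal glycoprotein, had 1366, 1167 and 977 TPM, and C1qb, a chain of complement C1q, 1325, 1032 and 930.3 TPM. The other C1q chains, C1qa and C1qc, averaged 569 ± 138 and 365 ± 78.7 TPM. Csf1r, the receptor of M-CSF, had 833, 765 and 820.4 TPM, and Mertk, which binds apoptotic cells, 124, 118 and 111 TPM. Timd4, a phosphatidylserine receptor of resident macrophages, had 0, 0 and 0 counts, and Cd163, the haemoglobin scavenger receptor, averaged 0.386 ± 0.249 TPM (SD, n = 3).

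The GM-CSF-dependent program of lung macrophages was also present, with 11 of 12 genes at 1 TPM or more. Chil3, a secreted chitinase-like protein, had 807, 1447 and 2222 TPM. Plet1, a surface glycoprotein, had 649, 903 and 1241 TPM, and Car4, a membrane carbonic anhydrase, 43.3, 81.8 and 165 TPM. All of these were lowest in A and highest in C. Of the 11 kept genes of the list, only these 3 had the order C above B above A on TMM-scaled CPM, and 5 had the reverse. Over all kept genes these orders were seen for 25.6% and 23.9%. Among those with the reverse order, the fatty acid-binding proteins Fabp5 and Fabp4 had 625, 533 and 455 TPM and 30.3, 22.1 and 15.1 TPM. Pparg, the nuclear receptor that GM-CSF induces in the lung, averaged 21.8 ± 3.29 TPM, and Siglecf, a sialic acid receptor, 30.1 ± 2.73. Krt79 had 1, 0 and 0 counts (SD, n = 3).

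The conventional DC list was detected in full, 13 of 13, but unevenly. Its high members are class II genes, and the members that are more specific to DCs were lower. Irf4 and Irf8, which direct the development of the cDC2 and cDC1 subsets, averaged 209 ± 26.2 and 71.7 ± 2.94 TPM, a ratio of 2.92 ± 0.372. Zbtb46, a transcription factor of conventional DCs, had 13.1, 16.7 and 18.9 TPM. Batf3, needed for cDC1, averaged 59.4 ± 7.36 TPM. Dpp4, the CD26 peptidase found on conventional DCs in such cultures, averaged 6.7 ± 0.685 TPM, and Kit, a receptor of precursors, 4.01 ± 1.08 (SD, n = 3). The median of the list was 71.7 TPM, against 269.6 TPM for the macrophage list. These lists hold different kinds of genes, and their medians do not measure the share of either cell type.

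Genes of DC subsets were mixed. Among cDC1 genes, Naaa, a lysosomal amidase, had 452, 444 and 490.1 TPM, and Wdfy4, needed for cross-presentation, 87.9, 96.3 and 114 TPM. Clec9a, a receptor for dead cells, averaged 16.7 ± 3.18 TPM, whereas the chemokine receptor Xcr1 had 3, 6 and 0 counts. Among cDC2 genes, the lectin Mgl2 had 224, 318 and 453 TPM and Klf4, a transcription factor, 106, 93.8 and 71.8 TPM, but Cd209a, a lectin of cDC2 and monocyte-derived DCs, had 5, 5 and 16 counts. Of the plasmacytoid DC list, 3 of 7 genes reached 1 TPM, led by Tcf4 at 6.06 ± 0.362 TPM, and Siglech had 1, 1 and 0 counts (SD, n = 3). The cDC1 receptor Clec9a was thus present, while Xcr1 and Siglech were near or under the floor.

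Monocyte genes were at intermediate levels. Ccr2, the receptor that draws monocytes from the marrow, had 223, 228 and 183 TPM. Cd14, an LPS co-receptor, had 183, 178 and 195 TPM, and Ly6c2, an antigen of inflammatory monocytes, 180.3, 122 and 141 TPM. F13a1, a subunit of coagulation factor XIII, was uneven, with 83.8, 34.6 and 20.3 TPM. Markers of patrolling monocytes were low, with Treml4 at 2 ± 0.25 TPM and Cx3cr1 at 0.984 ± 0.454 (SD, n = 3).

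Granulocyte genes were present in part. Mmp8, a collagenase known from neutrophils, had 761, 637 and 803 TPM and made up 84.7% of the neutrophil sum, while Ly6g, the defining surface antigen of mouse neutrophils, had 4, 2 and 3 counts and Retnlg 2, 1 and 2. S100a8 and S100a9, which form calprotectin, had 76.2, 42.5 and 63.3 TPM and 46.6, 17.2 and 8.53 TPM. S100a9 was highest in A, and so were Csf3r, the G-CSF receptor, with 36.8, 16 and 10.6 TPM, and Ngp, a granule protein, with 84, 29 and 6 counts. Mmp9, a gelatinase of neutrophils and macrophages, went the other way, with 10.4, 9.89 and 24.4 TPM. Of 7 granulocyte precursor genes, Cebpe alone reached 1 TPM, at 7.54 ± 1.36, and the proteinases Elane, Prtn3 and Ctsg had 3 counts or fewer in every library. The eosinophil list was highest in B, with sums of 33, 66.6 and 25.9 TPM. Prg2, the eosinophil major basic protein, had 18.1, 41.5 and 12.9 TPM, and Epx, the eosinophil peroxidase, 1.63, 4.84 and 0.47 TPM (SD, n = 3).

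Lymphoid and erythroid RNA was near the floor. In the T cell list, Thy1 averaged 759 ± 79.2 TPM and the rest summed to 1.17 TPM. Trac, the T cell receptor alpha constant region, had 0, 0 and 0 counts, Cd3e 0, 1 and 2 and Cd3g 1, 0 and 0. The NK cell list summed to 0.578 TPM and the mast cell and basophil list to 1.38. Of the B cell list, Ighm, the heavy chain of IgM, alone reached 1 TPM, at 2.67 ± 0.963. None of the 9 erythroid genes matched reached 1 TPM, although counts on the near-identical haemoglobin genes Hba-a1 and Hba-a2 are uncertain. In the platelet list, Pf4, a chemokine of platelets that macrophages also express, averaged 533 ± 87.8 TPM, while Gp9 had 0, 0 and 2 counts. Among progenitor genes, Cd93 averaged 117 ± 33.9 TPM and Cd34 0.316 ± 0.21. In stroma and endothelium, the highest gene was Kdr, the VEGF receptor, at 4.57 ± 0.171 TPM (SD, n = 3).

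The list of GM-CSF reception and signalling has 14 genes, among them Csf1, Csf1r and Csf3r of the M-CSF and G-CSF systems. Of these 14 genes, 13 reached 1 TPM, with a median of 100.2 TPM. The shared beta chain Csf2rb had 1233, 1339 and 1497 TPM, its mouse-specific copy Csf2rb2 had 849, 920.0 and 1005 TPM, and the alpha chain Csf2ra had 437, 452 and 474 TPM. Csf2rb was 2.98 ± 0.167 times as high as Csf2ra, though the 2 beta chain genes are close copies whose reads may be split. Jak2 averaged 246 ± 33 TPM, Stat5b 39.2 ± 1.76 and Stat5a 27.8 ± 2.79. Cish, a STAT5 target that restrains the receptor, averaged 133 ± 19.7 TPM. The gene of the cytokine itself, Csf2, had 0, 0 and 0 counts. Csf1, which encodes M-CSF, had 102, 119 and 94.7 TPM (SD, n = 3).

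Receptors for the stimuli used in the wider series were in place. Tlr4, the LPS receptor, had 102, 109.9 and 109 TPM, and its partner Ly96, which encodes MD-2, 26.3, 27.1 and 20.3 TPM. Myd88, the adaptor, averaged 159.9 ± 0.455 TPM. Of the type I interferon receptor chains, Ifnar1 had 118, 117 and 117 TPM and Ifnar2 53.5, 49.9 and 46.4 TPM. The transcription factor Stat2 was uneven, with 162, 136 and 89 TPM.

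Genes of DC maturation were expressed without added stimulus. All 15 genes of the list reached 1 TPM. Ccl22, a chemokine of mature DCs, had 1034, 1053 and 1055 TPM, nearly equal in the 3 libraries, whereas Ccl17 was 1.84 times higher in C than in A on TMM-scaled CPM. Ccr7, which guides DCs to lymph nodes, had 264, 244 and 254 TPM. Fscn1, an actin bundler of mature DCs, averaged 269 ± 25.9 TPM, and Cd274, which encodes PD-L1, 428 ± 15.9. The co-stimulatory genes Cd86, Cd80 and Cd40 averaged 58.5 ± 12.5, 54.1 ± 3.75 and 7.95 ± 0.837 TPM (SD, n = 3).

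Inflammatory effectors covered a wide range. Acod1, which makes itaconate, had 254, 359 and 355 TPM, and Tnf 179, 229 and 281 TPM. Il1a and Il1b had 93.1, 158 and 208 TPM and 69.6, 106 and 147 TPM. These 4 genes were lowest in A, and so was Il6 with 1.38, 2.23 and 3.75 TPM. Nos2, the inducible nitric oxide synthase, was highest in A, with 3.20, 1.91 and 0.919 TPM, as was Ptgs2, which encodes cyclooxygenase-2, with 2.4, 2.11 and 1.71 TPM. Of the 10 kept genes of the list, 5 had the order C above B above A and 3 the reverse on TMM-scaled CPM. These orders were seen for 25.6% and 23.9% of all kept genes. Il12b, which encodes IL-12p40, averaged 7.31 ± 1.4 TPM (SD, n = 3). Il10 had 0, 1 and 0 counts and Il23a 1, 0 and 0.

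Cell cycle genes were present, with 16 of 16 at 1 TPM or more and a sum of 526, 586 and 628 TPM. Pcna, the replication clamp, averaged 181 ± 3.39 TPM, the helicase subunit Mcm3 61.6 ± 5.64 and Mki67, the Ki-67 antigen, 59.2 ± 10.5 (SD, n = 3). The mitotic cyclin Ccnb1 was the lowest, at 8.05 ± 0.957.

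All 15 lipid handling genes and all 8 iron and haem genes reached 1 TPM. Lpl, a lipoprotein lipase, had 1374, 1591 and 1363 TPM, and Cd36, a fatty acid receptor, 872, 1261 and 1198 TPM. Apoe, a lipid carrier, had 444, 267 and 243 TPM and was highest in A. Hmox1, which degrades haem, averaged 488 ± 31.7 TPM, and the iron exporter Slc40a1 1.92 ± 0.477 (SD, n = 3).

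Glycolytic genes lay above the median of detected protein-coding genes as a list, with a median of 148 TPM. Of 24 genes, 23 reached 1 TPM, and the sums were 7928, 7401 and 7763 TPM. Aldoa, Gapdh and Pkm averaged 1452 ± 60.6, 1137 ± 57.1 and 966 ± 11.1 TPM. Among isoforms, Slc2a1, which encodes GLUT1, was 301 ± 45.5 times as high as Slc2a3. Of the hexokinases, Hk3 averaged 203 ± 31.7 TPM, Hk2 147 ± 2.16 and Hk1 55.2 ± 0.766. Ldha exceeded Ldhb 30.9 ± 2.19 times, and Pfkp exceeded Pfkl 1.98 ± 0.362 times (SD, n = 3). Hk3 is higher than Hk2 in every library, with ratios of 1.61, 1.42 and 1.14 in A, B and C.

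All 21 genes of the TCA cycle list, which also holds genes of cytosolic enzymes such as Idh1, were expressed, with a median of 96.3 TPM. Sdhd, a membrane anchor of complex II, averaged 333 ± 11 TPM and Sdha, its flavoprotein, 185 ± 6.18. Idh1, the cytosolic isocitrate dehydrogenase, averaged 328 ± 16.4 TPM, against 50.5 ± 7.86 for the mitochondrial Idh2. Of 17 fatty acid oxidation genes, 15 reached 1 TPM. Cpt1a, which admits long-chain fatty acids to the mitochondrion, averaged 79 ± 3.66 TPM, while its muscle isoform Cpt1b had 5, 7 and 14 counts. In the PGC-1 family, Ppargc1b had 38, 43.8 and 47 TPM and the related Pprc1 35, 43 and 44.3 TPM, a ratio of 1.06 ± 0.0344. Ppargc1a had 3, 2 and 2 counts, at or under the floor. The partner receptor Esrra averaged 38.8 ± 2.25 TPM, whereas Esrrb had 0, 0 and 1 counts and Esrrg 0 in every library (SD, n = 3).

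The libraries were made from total RNA after removal of ribosomal RNA, so that RNAs without a poly(A) tail could be counted. Genes not annotated as protein-coding took 8.34% ± 0.174 of the counts, with 8.14% in A, 8.45% in B and 8.44% in C. Nuclear protein-coding genes took 90.8% ± 0.255, long non-coding genes 6.68% ± 0.137, small non-coding genes 0.854% ± 0.00922, genes of the annotation class TEC (predicted, awaiting experiments) 0.408% ± 0.0495 and pseudogenes 0.38% ± 0.0269 (SD, n = 3).

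**Figure D3:**
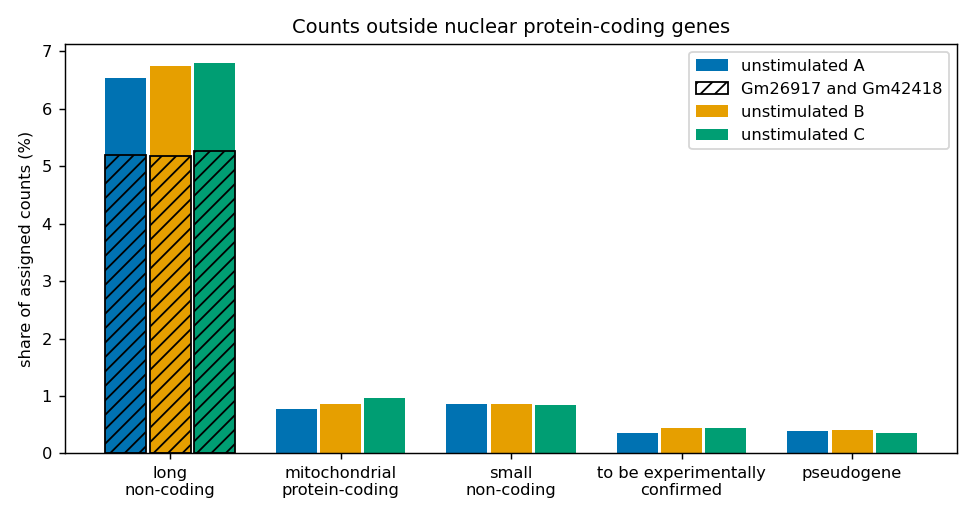
Share of assigned counts, in percent, of 5 classes outside nuclear protein-coding genes, with 1 bar per unstimulated library. The hatched part of the long non-coding bars is the share of Gm26917 and Gm42418, between 5.18% and 5.26% of all counts.

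Most long non-coding counts came from 1 locus on chromosome 17. Gm26917 (GRCm38, chr17:39843013-39846341, plus strand) had 1449295, 1577652 and 1558543 counts, which is 4.39% ± 0.0505 of all counts and more than any protein-coding gene. Gm42418 (chr17:39846958-39848788, plus strand) had 289192, 279640 and 289430 counts. RefSeq places the 18S ribosomal RNA-related sequence Rn18s-rs5 at chr17:39846354-39848202, which shares 1245 bases with Gm42418 and lies 12 bases from the end of Gm26917. Together Gm26917 and Gm42418 made up 78% ± 1.48 of long non-coding counts. Without them, genes that are not protein-coding held 3.3% ± 0.18 of the remaining counts and long non-coding genes 1.55% ± 0.133 (SD, n = 3). The share outside protein-coding genes thus falls by more than its spread when this locus is left out.

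The same locus shows that strands were counted apart. CT010467.1, annotated as ribosomal RNA on the minus strand over 1822 of the 1831 exon bases of Gm42418, had 1686, 1917 and 1806 counts, far fewer than Gm42418 on the plus strand. Of 439 genes whose exons lie wholly under exons of the other strand, 193 had a count in some library and 31 were detected.

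The next non-coding genes were nuclear RNAs. Malat1, a nuclear speckle RNA, had 227315, 302198 and 282012 counts, 0.775% ± 0.0846 of the total, and Neat1, the scaffold of paraspeckles, had 19821, 27968 and 28341 counts. Rn7sk, the 7SK RNA that holds the elongation factor P-TEFb inactive, had 213364, 199195 and 202615 counts. Kcnq1ot1, an imprinted antisense RNA, had 9451, 12198 and 12896 counts. Gm23935, annotated as a miRNA gene of 57 bases, had 42027, 68002 and 56853 counts, and Gm22009, annotated as a scaRNA, 6313, 8072 and 7983. Counts on such short genes in libraries of sheared RNA do not measure mature small RNAs. Clec7a, the receptor dectin-1, had 48938, 55226 and 44924 counts and entered here because its annotated class is polymorphic pseudogene, and Gvin-ps7, a pseudogene of the interferon-inducible GTPase family, had 17823, 18572 and 14061.

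All 11 snoRNA host transcripts listed were detected, led by Snhg15 at 38.4 ± 2.68 TPM and Gas5 at 34.9 ± 5.42. The imprinted RNAs H19 and Meg3 had 0 counts in every library (SD, n = 3).

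Host transcripts of myeloid miRNAs were expressed. Mir142hg, which carries the haematopoietic miR-142, had 251, 304 and 324 TPM. Mir155hg, which carries the inflammatory miR-155, had 21.9, 25.6 and 24.6 TPM. The mature miRNAs were not measured, and their RefSeq sequences (GRCm38.p6) are given to show what these transcripts encode, with the seed (bases 2 to 8) in capitals all on the plus strand. The arms of the miR-142 hairpin lie at chr11:87756867-87756887 and chr11:87756903-87756925 and have different seeds, and miR-155-5p lies at chr16:84714143-84714165.
mmu-miR-142a-5p: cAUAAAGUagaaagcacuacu
mmu-miR-142a-3p: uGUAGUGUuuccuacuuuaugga
mmu-miR-155-5p: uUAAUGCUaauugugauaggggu

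Mitochondrial genes took 0.871% ± 0.0891 of the counts (SD, n = 3), with 0.784% in A, 0.866% in B and 0.962% in C. mt-Co1, a subunit of cytochrome c oxidase, had 139703, 161073 and 170807 counts, and mt-Cytb, of complex III, 39171, 47784 and 57657. Among complex I subunits, mt-Nd1 had 26700, 33949 and 36204 counts. mt-Nd5 had 25799, 31092 and 35521 counts and mt-Nd4 15939, 18656 and 20851, so that these genes were all lowest in A. Of 13 mitochondrial protein-coding genes, 6 had under 30 counts in every library, and these lie side by side at chrM:7013-10173. Known nuclear copies of mitochondrial DNA lie on chr1, and the annotated pseudogenes there include Gm28661 with 28, 68 and 47 counts and Gm28437 with 21, 47 and 34. Reads that match both places may not have been counted, and the levels of those 6 genes are uncertain. The mitochondrial ribosomal RNA mt-Rnr2 had 1555, 1328 and 490 counts and mt-Rnr1 1112, 1177 and 595, both lowest in C.

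The spread between the 3 libraries was then measured on 14861 genes kept by edgeR's filter, as CPM scaled with TMM factors of 0.970, 1.01 and 1.02. The common biological coefficient of variation (BCV), the spread beyond counting error that edgeR estimates, was 11.8%. The median coefficient of variation (CV) per gene was 8.29%, and 6110 genes (41.1%) had a CV over 2 times that of counting error. A and C differed most, with an SD of the log2 difference over genes of 0.34, against 0.24 for A and B and 0.24 for B and C. At least 1.5-fold differences were found for 1720 genes between A and C, 1076 between A and B and 1038 between B and C. The counts of each pair were farther apart than counting error allows, so that no library was taken for a repeat of another. Without B, the BCV of A and C alone was 15.8%, and without C, that of A and B was 8.98%. With 3 libraries of 1 group, no test of these differences was made. The scale matters when A is set against C, since the median log2 ratio of A to C over kept genes was -0.01 on TMM-scaled CPM and -0.12 on TPM, and orders of libraries are therefore given on the former unless TPM is named.

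**Figure D4:**
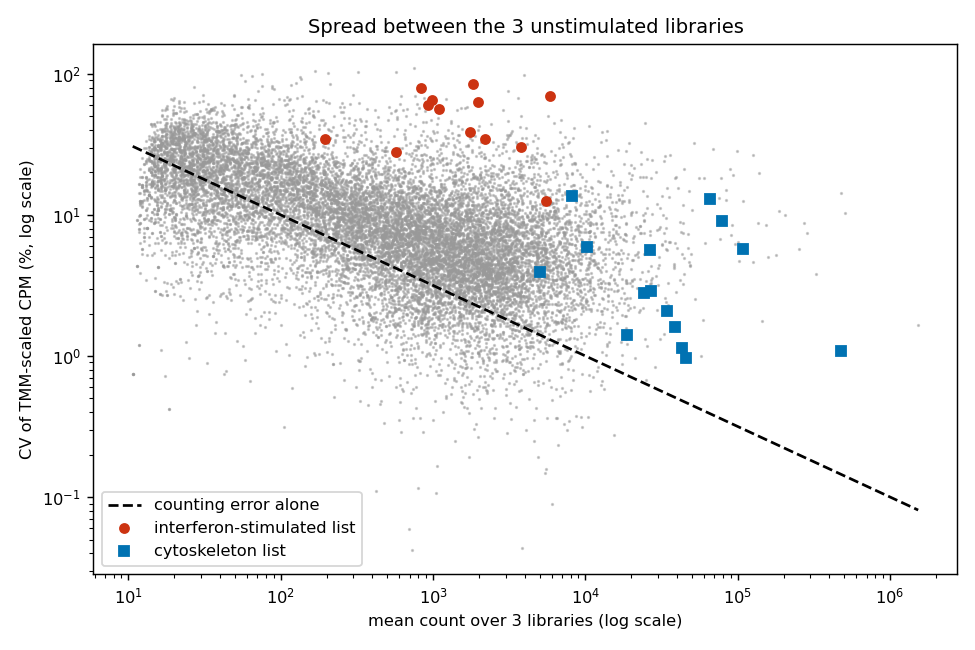
CV of TMM-scaled CPM between the 3 unstimulated libraries, in percent, against the mean count, both on logarithmic axes, with 1 point per gene and a dashed line for counting error alone. The interferon-stimulated genes lie between 12.5% and 84.9%, and Actb, among the genes with the most counts, lies at 1.09%.

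The spread was close to counting error for rare genes and above it for abundant ones. Genes with a mean under 30 counts had a median CV of 20.9%, close to the 22% of counting error. Genes over 10000 counts had 5.39% against 0.789%. Among genes with at least 1000 counts, the 5 with the smallest CV were Atp9b, Akna, Timm13, Ubash3b and Frrs1, each below the CV of counting error. Cytoskeleton and TCA cycle genes lay under the median CV of all genes as lists, with a median CV of 2.87% over 15 cytoskeleton genes, 3.58% over 21 TCA cycle genes and 3.38% over 9 reference genes. The median of all genes includes rare genes, whose CV is larger. When all kept genes were divided by mean count, the lowest median CV of any class was 4.7%. The lists lay under that value too, but by less. They were not matched to other genes for mean count.

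The 10 genes with the largest CV, among those with at least 100 counts on average, were highest in A with 1 exception. The share highest in A was 37% over all kept genes on TMM-scaled CPM. These 10 were picked by their spread and need not be independent of each other. The minimum is on the mean of the 3 libraries, so that a gene high in A alone can pass it. Gm42031, Ifit1bl1, Gm24187 and S100a9 had under 100 counts in B and in C, and Gm42031 is not among the kept genes. The count of these 10 genes highest in A is therefore not read against the 37%. Gm42031, a long non-coding gene (GRCm38, chr8:85125872-85132289, minus strand), had 564, 0 and 0 counts. Its level in A was at least 208-fold higher than the floor of 3 counts per library in B and C. Hpgds, the haematopoietic prostaglandin D synthase, had 10.7, 3.33 and 1.06 TPM, and Arhgef10l had 21.5, 6.47 and 2.31 TPM. Ifit1bl1, of the Ifit family, had 16.2, 3.85 and 2.45 TPM. Lars2, annotated as the mitochondrial leucyl-tRNA synthetase, had 74.2, 20.2 and 12.2 TPM. It had been listed with mt-Rnr1 and mt-Rnr2 among abundant small non-coding RNAs. Whether its counts come from the messenger RNA of the synthetase was not tested. Mir6236, annotated as a miRNA gene, had 1631, 459 and 148 counts, Gm24187 268, 95 and 40 and the antisense gene Gm15564 424, 136 and 52. S100a9 is also among them. Retnla, a secreted protein of alternatively activated macrophages, was the exception, lowest in A, with 2.38, 20.8 and 43.8 TPM.

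Interferon-stimulated genes differed between the libraries in the same direction, with no interferon added to any of them. Their sum was 1350.3, 1045 and 521 TPM in A, B and C. Irf7, the factor that amplifies type I interferon, had 243, 184 and 38.6 TPM, and Ifit2, an RNA-binding antiviral protein, 87.4, 38.9 and 12.9 TPM. Ifit3 had 86.5, 40.5 and 15.6 TPM, Isg15, a ubiquitin-like modifier, 189.8, 126 and 51 TPM, and Rsad2, the antiviral enzyme viperin, 73.5, 41.1 and 20.6 TPM. Each was highest in A and lowest in C. Oas1a, a sensor of double-stranded RNA, had 241, 217 and 137 TPM, and Mx1, an antiviral GTPase, 143, 162 and 128 TPM. Ifnb1, the gene of IFN-β, had 0, 0 and 1 counts.

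Of the 13 kept members, 12 differed by at least 1.5-fold between the highest and the lowest library, against 16.5% of all 14861 genes. For 11 of the 13 the order was A above B above C, on both scales, an order seen for 23.9% of all genes (13.7% on TPM), while the reverse order was seen for 25.6% (39.7% on TPM) and B lay between A and C in 49.5%. The median ratio of A to C was 3.59, against 0.993 over all genes. The members are not independent of each other, and these counts describe 3 libraries.

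**Figure D5:**
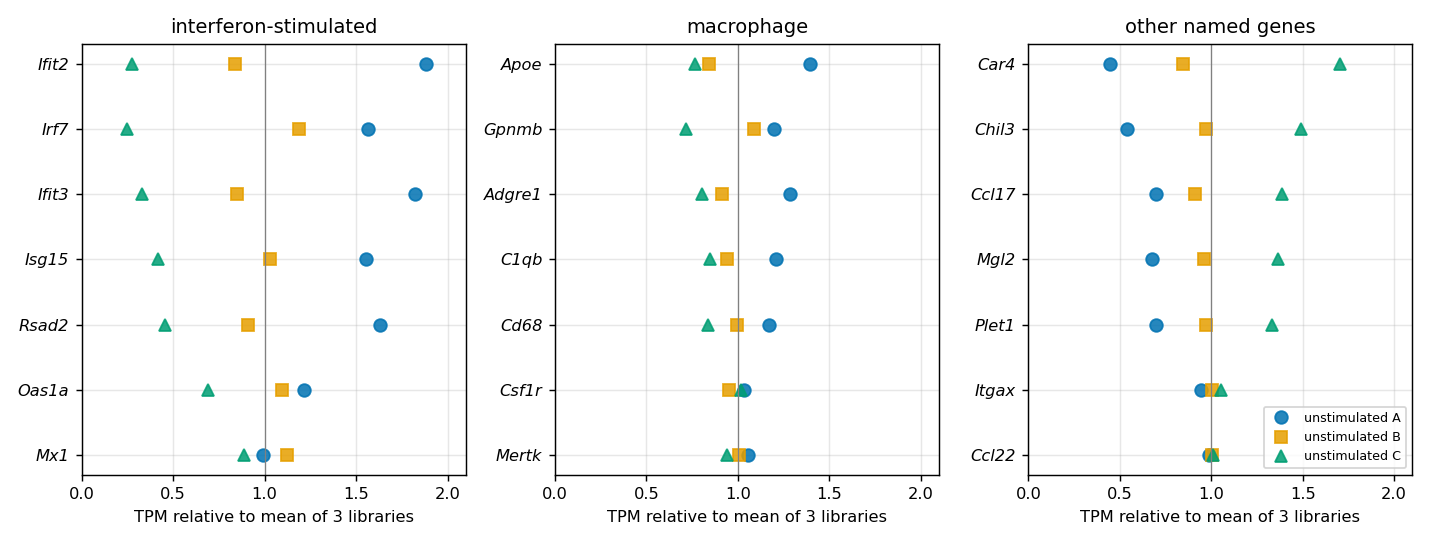
Level of the named genes in each unstimulated library relative to the mean of the 3 libraries, from TPM. Interferon-stimulated genes other than Mx1 are highest in A and lowest in C, Car4, Chil3, Ccl17, Mgl2 and Plet1 are highest in C, and Itgax, Ccl22 and Csf1r are nearly equal.

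The 250 bases before the annotated starts of interferon-stimulated genes were searched for GAAA, any 2 bases and GAAA again, the core of the element bound by interferon-activated factors, on both strands and with overlapping matches counted. Of 14 list members, 10 had a RefSeq window, and 6 of these held the motif, against 3.46% of 27025 genes. The motif was chosen after the values were seen, and a match is no evidence of binding. Windows of 3 genes are printed from the coding strand in GRCm38.p6, with matches on either strand in capitals. Ifit3 (chr19:34583279-34583528, plus strand) holds 2 matches and Isg15 (chr4:156200819-156201068, minus strand) 3 overlapping ones. Irf7 (chr7:141266425-141266674, minus strand), with a 6.78-fold range on TMM-scaled CPM, holds none in this window.
Ifit3: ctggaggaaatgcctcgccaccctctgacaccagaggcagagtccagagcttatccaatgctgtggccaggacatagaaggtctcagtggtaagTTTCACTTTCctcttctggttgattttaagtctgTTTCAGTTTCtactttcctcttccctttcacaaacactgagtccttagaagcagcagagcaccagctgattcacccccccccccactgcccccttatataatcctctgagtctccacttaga
Isg15: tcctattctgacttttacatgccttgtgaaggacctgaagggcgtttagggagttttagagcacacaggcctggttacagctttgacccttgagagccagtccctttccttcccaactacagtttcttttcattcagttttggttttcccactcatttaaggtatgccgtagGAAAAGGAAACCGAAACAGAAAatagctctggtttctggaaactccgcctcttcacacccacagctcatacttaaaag
Irf7: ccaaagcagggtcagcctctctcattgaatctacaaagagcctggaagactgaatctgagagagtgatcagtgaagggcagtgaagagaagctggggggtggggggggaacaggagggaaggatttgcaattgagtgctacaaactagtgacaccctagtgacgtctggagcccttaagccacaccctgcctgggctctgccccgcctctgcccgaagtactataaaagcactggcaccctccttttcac

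Other lists also differed between the libraries. Of all kept genes, 37% were highest in A on TMM-scaled CPM and 19.8% on TPM, and 48.3% were higher in A than in C (30% on TPM). Of 14 macrophage genes kept, 13 were highest in A (12 on TPM) and 9 differed by at least 1.5-fold, with Apoe at a 1.97-fold and Adgre1 at a 1.73-fold range. All 20 lysosomal genes were highest in A (17 on TPM), with a median ratio of A to C of 1.38, and 6 of them differed by at least 1.5-fold. The sums of the macrophage list were 7999, 6622 and 5614 TPM. Of 16 proliferation genes, 11 had the order C above B above A (12 on TPM, where 39.7% of all genes have it), but 0 differed by 1.5-fold. Of 15 mature DC genes, 2 did, Ccl17 and Cd86, in opposite directions. All 13 receptor and signalling genes for the stimuli were higher in A than in C (10 on TPM), with 1, Stat2, at 1.5-fold or more, a smaller share than the 16.5% of all genes. Most genes of the interferon, macrophage and lysosomal lists were thus highest in the library with the lowest total count and TMM factor, and the part of either in these differences was not tested.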

How the data were processed

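Total RNA (500 ng per library) of unstimulated DCs was made into libraries after ribosomal RNA removal and sequenced. The authors trimmed adapters, mapped reads to mm10 with STAR (2.7.3a in the methods, 2.7.8a in the submitters' processing notes) and took counts per gene of GENCODE M20. The deposited values are raw counts, and 0 columns lacked a sample. The strand setting is not stated, and the serum is named differently in labels and methods.

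Biotypes, positions and exon lengths came from GENCODE M21, in which 55230 of 55471 identifiers had an entry (GRCm38). TPM divided counts by the union of exons. The spread was estimated with edgeR 4.0.16 (TMM, intercept only, filterByExpr) in R 4.3.3 and tested on simulated data. Named genes were the 4 markers, the 25 highest protein-coding, 10 non-coding and 5 mitochondrial genes, up to 5 leading and the absent members of 43 lists, isoforms, and the 10 largest and 5 smallest CVs. Further list members named beside these were chosen after their values were seen. The list genes without an entry were Ahsp, Cyrano, Lincenc1 and Ptprj-as1. Members and lists were chosen with earlier results of these data known. Stimulated libraries were not used here. Alternatives were other lengths, denominators, minimum counts and scalings (DESeq2 1.42.0 among them), and leaving out each library.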

Additional observations from a re-analysis of the deposited data

How the results depend on the processing

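Leaving out each library in turn gave ranges of 15124 to 15375 genes detected, 8.29% to 8.44% of counts outside protein-coding genes, 0.825% to 0.914% on mitochondrial genes, 19.7 to 20.3 TPM for the median, 40.0% to 40.6% in the 100 most abundant genes, 101 to 102 lineage genes at 1 TPM, and a BCV of 8.98% to 15.8%, the highest without B. The share outside protein-coding genes was 2.03% without the 10 genes with most counts and 3.30% without Gm26917 and Gm42418, an alternative chosen after seeing the data. The median level was 21.8 TPM with the longest transcript as length, 17.5 TPM with all genes in the denominator, 23.6 TPM with protein-coding genes only (chosen after seeing the data) and 26.1 CPM without length. The 100 most abundant genes held 37.3% with the longest transcript, 28.2% of counts without length, and 33.1% with protein-coding genes only (chosen after seeing the data). With 1 count in any library, 26029 genes were detected. Other scalings and filters left the BCV between 10.7% and 12.2%. No paired analysis was possible because 1 group was used and no test was made. Depth limits genes under 30 counts, whose CV is close to counting error.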

Other observations

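Genes linked to multinucleated cells were also expressed. Of the 8 osteoclast genes, 6 reached 1 TPM, and their sum was 666 TPM in A, 700.0 TPM in B and 683 TPM in C. Dcstamp, which cells need to fuse, averaged 372 ± 34.6 TPM (SD, n = 3), Ocstamp 54.1 ± 3.36 and Acp5, the tartrate-resistant phosphatase, 139 ± 20.6. Calcr, the calcitonin receptor of mature osteoclasts, had 0, 0 and 0 counts.

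Besides Gm42031, a pair of protein-coding genes had at least 100 counts in 1 library and 3 or fewer in another, and they were picked out after their values were seen. H4c17, a histone H4 gene with close copies, had 1, 242 and 227 counts in A, B and C. Xlr3b, an X-linked gene of a multigene family, had 31, 106 and 0 counts. Counting could split the reads of both among their copies.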
